A study of Rattus norvegicus with 15 samples.

Results

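Cytosolic ribosomal proteins are the protein parts of the ribosome that translates nuclear messenger RNA. Members were all probe sets that carry a single gene symbol of the Rpl or Rps series, or Rpsa, Rplp0, Rplp1 or Rplp2, with the ribosomal S6 kinase genes left out. The rule found 63 probe sets of 43 symbols, among 8740 probe sets that were not array controls. By the first letters of the symbol, 42 of these probe sets (29 symbols) were counted as large subunit and 21 (14 symbols) as small subunit. The small-subunit count includes the pseudogene symbols Rps2-ps1 and Rps4x-ps9. No single-symbol probe set measured Rplp1, Rplp2, Rps27a or Rpl10a.

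The study profiled rat mesenteric arteries on Affymetrix 1-colour arrays to ask why collateral arteries grow less in hypertensive rats. Rats of the spontaneously hypertensive strain (SHR) and of the normotensive Wistar-Kyoto strain (WKY) were compared, and in each strain collateral arteries, made by occluding neighbouring arteries, were set against control arteries. Control arteries were hybridised on 4 arrays for SHR and 3 for WKY, and collateral arteries on 4 for each strain. The labels give no age, no time after occlusion and nothing on whether each array was its own animal or a pool. Each p-value below therefore refers to the spread among arrays, part of which may be technical.

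The large subunit joins amino acids into protein and the small subunit reads the messenger RNA. Many messages for ribosomal proteins begin at a C followed by a run of pyrimidines, the 5′ terminal oligopyrimidine (TOP) feature, through which growth signals acting by mTOR control their translation. Ribosome production is known to rise in growing cells, enlarging vascular smooth muscle included. An array of this kind measures message abundance and not translation, and in whole arteries fewer cells of a type and less RNA per cell cannot be told apart.

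The start regions below, of members whose values are described later, were searched for letters like those of the TOP feature. RefSeq promoter windows (rat build GRCr8) were found for 36 of the 43 symbols. A C followed by at least 4 bases that are each C or T, within the first 7 bases of the transcript on its own strand, was found in 16 of these 36 (44.4%), and in 5.95% of all 33469 promoters. This search is looser than a C at the annotated start itself. The marked run of Rpl23 follows the bases ga, and that of Rps24 opens with a T. The windows run from 30 bases before the annotated start to 20 bases after it, 5′ to 3′ on the gene's strand. Capitals mark the pyrimidine run that holds the match.
Rpl19 (chr10:83519034-83519083, + strand): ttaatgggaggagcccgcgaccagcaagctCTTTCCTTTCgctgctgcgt
Rpl23 (chr10:83272165-83272214, - strand): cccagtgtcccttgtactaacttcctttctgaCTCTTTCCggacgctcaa
Rps15 (chr7:10068096-10068145, - strand): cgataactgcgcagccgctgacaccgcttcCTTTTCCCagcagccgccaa
Rps24 (chr16:96487-96536, + strand): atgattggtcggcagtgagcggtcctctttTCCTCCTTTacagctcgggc
Rpl18 (chr1:105325240-105325289, + strand): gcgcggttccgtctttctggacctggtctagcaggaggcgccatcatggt
Rps27l (chr8:76443628-76443677, + strand): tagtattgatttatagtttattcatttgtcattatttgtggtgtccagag
The run was absent from the window of Rpl18 and from that of Rps27l, a close copy of Rps27, and its absence there says only that these letters were not at the annotated start. Over the whole 300-base windows, searched on both strands, the GC box GGGCGG was present in 23 of the 36 against 33.1% of all promoters. The ETS core CCGGAA was present in 13 against 5004 of the 33469, and TATAAA in 4 against 14.2%. The letters of none of these motifs contain another.

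The ribosomal protein messages were among the brightest on the arrays. A probe set was tested where its signal reached the 40th percentile of the array on at least 3 arrays, which 62 of the 63 members did. The probe set that did not was one of a pair for the pseudogene symbol Rps2-ps1 (L81138exon_i_at), which also had the lowest mean log2 signal of the members, 6.01. Of the 62, 51 were above the 90th percentile of tested probe sets by mean log2 signal, and 50 were at or above the 90th percentile on every array. The highest mean log2 signal belonged to a probe set of Rpl23 (X58200mRNA_g_at, 17.01), a large-subunit protein that also binds the p53 regulator Mdm2. Only 5 member probe sets fell below the 40th percentile on any array. They were both of Rps2-ps1 and those of Rpl30, Rps24 and Rpl5, the last of which carries 5S RNA.

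The members also varied little between arrays of a group. Their pooled within-group SD of log2 signal had a median of 0.36, against 0.718 over all 6512 tested probe sets and 0.473 over the 601 other probe sets above that 90th percentile. Without the array SHR collateral 3, described next, these medians were 0.252, 0.618 and 0.352. Also without that array, 58 of 62 members had an SD below the median of all tested probe sets. With all arrays the SD was smallest for Rpl19 (0.123) and for Rpl24 (rc_AA817997_g_at, 0.128), both large-subunit proteins. It was largest for Rps2-ps1 (L81137exon_s_at, 1.30) and for Rps24, a small-subunit protein (1.11, or 0.212 without SHR collateral 3).

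**Figure D1:**
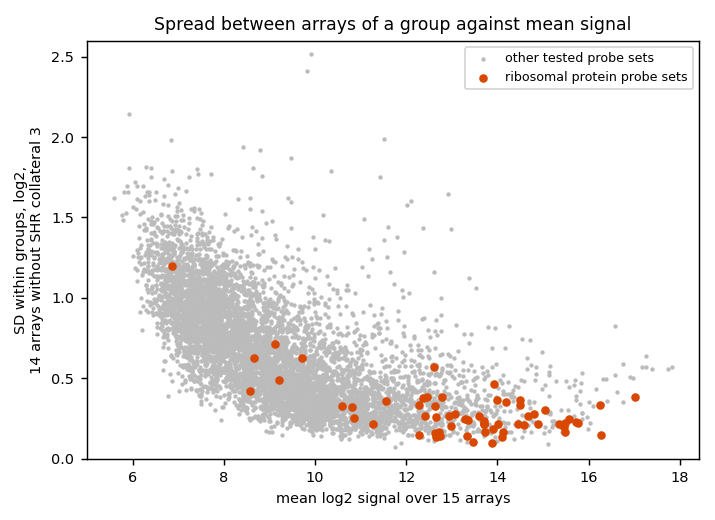
Within-group SD of log2 signal over 14 arrays (y axis) against mean log2 signal over 15 arrays (x axis) for tested probe sets, one point each. The 62 ribosomal protein probe sets, in orange, lie mostly at the right and low, with a median SD of 0.252 against 0.618 over all tested probe sets.

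One array stood apart. SHR collateral 3 had rank correlations of 0.496 to 0.657 with the other arrays over all tested probe sets, its spike-in controls averaged a signal of 354583 against 26654 to 130880 elsewhere, and the 20th percentile of its signals stood at 171.2, where the rest had 43.4 to 83.3. On it the members fell on the opposite side from most probe sets. Measured from each probe set's mean over the other 14 arrays, the median member was at -0.358 (log2) and the median tested probe set at 0.518. Members were brighter than most, with a median mean log2 signal of 13.53 against 8.94 over all tested probe sets. Other probe sets of like signal are not set beside them here, and a shift by brightness was not tested. The member values ranged from -3.93 for Rps24 to 1.91 for the dim Rps2-ps1 (L81137exon_s_at), and 42 of 62 were below 0. The small subunit had a median of -0.582 and the large subunit -0.266. The probe sets of Rps3, Rps3a, Rpl3, Rpl4 and Rps24 were among the low ones, while those of Rps15 ending in i and r and those of Rpl3l were high. On the other 14 arrays the member median lay between -0.196 and 0.184. Summary values and named members resting on SHR collateral arteries are therefore given with and without this array.

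**Figure D2:**
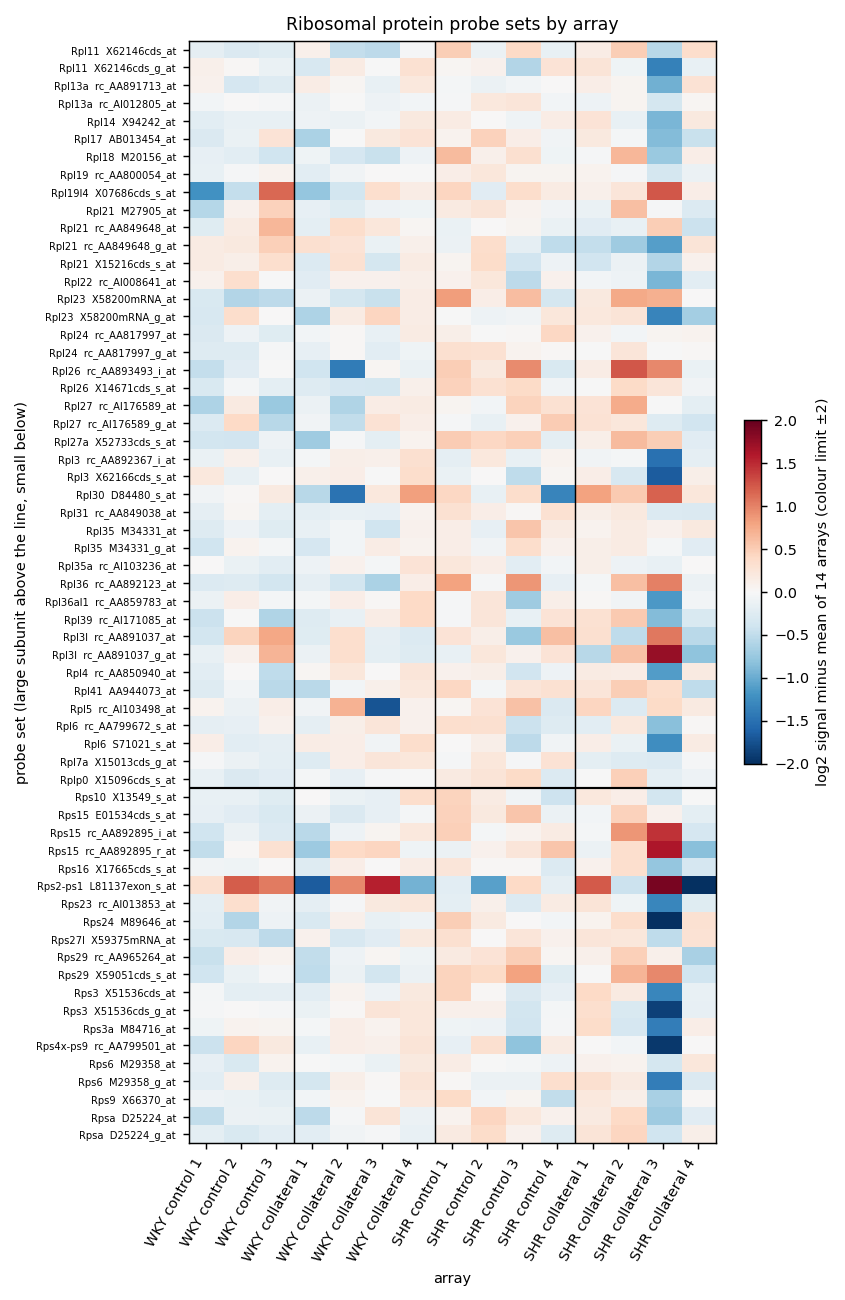
Log2 signal of each of 62 ribosomal protein probe sets (rows) on each of 15 arrays (columns), as the difference from the probe set's mean over the 14 arrays other than SHR collateral 3, with colours limited at ±2. The column SHR collateral 3 holds most of the dark cells, and 42 of its 62 values are below 0.

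The labelled tissue was checked against markers. Of the smooth muscle markers measured, 7 of 7 were above the 40th percentile on every array, as were 7 of 8 for fibroblasts. For endothelium it was 2 of 6, for macrophages 3 of 6, for adipocytes 3 of 5, for mast cells 2 of 7 and for red cells 1 of 2. For lymphocytes it was 0 of 9, for pancreas 1 of 6, for skeletal muscle 1 of 5, and for gut epithelium and for nerve and glia 1 of 4 each. The summed adipocyte markers ranged from 11.98 to 16.21 (log2) over all arrays and those of smooth muscle from 16.27 to 18.35.

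In control arteries most ribosomal protein probe sets had a higher mean in SHR than in WKY, but no member passed the test. The median difference over the 62 members was 0.185 (log2, SHR minus WKY), with 45 of 62 above 0 (72.6%). Over all tested probe sets the median was 0.02, with 51.6% above 0. With limma and Benjamini-Hochberg adjustment over all tested probe sets, 0 members passed adjusted p of 0.05, where 0.0307% of all did, and the smallest adjusted p among them was 0.628. At unadjusted p under 0.05, 3 members were higher, against 3.72% of all, and 0 were lower, against 2.75%. The median was 0.185 over the 42 large-subunit probe sets and 0.179 over the 20 of the small subunit.

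In 12 of the 62 probe sets (19.4%) the strains separated. These had all 4 SHR values above all 3 WKY values, against 4.85% of all tested probe sets, and 0 had the reverse, against 3.72%. They were the probe sets of Rpl14, Rpl18, Rpl36, Rpl41, Rps24 and Rps27l, both of Rpl24, 2 of the 3 of Rps15, and 1 of 2 each for Rpl11 and Rpsa. Some margins were narrow, as for Rpl41, whose lowest SHR value was 12.21 and highest WKY value 12.20. Members also had a smaller within-group SD than most probe sets (median 0.36 against 0.718), and no share over probe sets of like SD is given. Under another array scaling the count changed. With quantile normalization it was 15 higher and 1 lower, beside 4.39% and 4.21% of all, and with equal array medians it was 6 and 1, beside 3.61% and 4.42%.

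The member with the smallest p in this comparison was Rpl23 (X58200mRNA_at). Its log2 signal was 13.16, 12.45, 12.94 and 11.96 in SHR control arteries and 12.02, 11.73 and 11.80 in WKY control arteries. The lowest SHR value fell below the highest WKY value, so the strains overlapped. The difference was 0.78 ± 0.30 (SE, limma adjusted p = 0.628). The other Rpl23 probe set (X58200mRNA_g_at) differed by -0.001 ± 0.388.

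Rps27l, the copy of the small-subunit protein Rps27, had SHR control values of 13.07, 12.76, 12.99 and 12.84 and WKY control values of 12.44, 12.43 and 12.23. The strains did not overlap. The difference was 0.55 ± 0.25 (limma adjusted p = 0.730). Rps15, a small-subunit protein (E01534cds_s_at), read 14.17, 13.91, 14.27 and 13.60 in SHR and 13.55, 13.48 and 13.41 in WKY. These groups also did not overlap, by a narrow margin, with a difference of 0.51 ± 0.24 (limma adjusted p = 0.768). Rpl36, of the large subunit, read 13.52, 12.70, 13.60 and 12.56 in SHR and 12.45, 12.47 and 12.36 in WKY, a difference of 0.67 ± 0.32 (limma adjusted p = 0.778). Its SHR arrays split into a high pair (1 and 3) and a pair just above WKY.

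Rpl18, another large-subunit protein, read 13.34, 12.80, 13.03 and 12.61 in SHR and 12.54, 12.49 and 12.31 in WKY. The lowest SHR array again stood just above the highest WKY array, and the difference was 0.50 ± 0.29 (limma adjusted p = 0.870). Rps24 read 12.03, 11.72, 11.54 and 11.48 in SHR and 11.33, 10.95 and 11.43 in WKY. Its difference of 0.46 had an SE of 0.69 with all arrays and 0.21 without SHR collateral 3, although that array is in neither group, because the groups share 1 estimate of spread.

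The smallest p among lower members belonged to Rpl21 (rc_AA849648_g_at, -0.39), Rps2-ps1 (L81137exon_s_at, -1.12) and Rpl21 (X15216cds_s_at, -0.23). Rps2-ps1 read 6.53, 5.65, 7.13 and 6.55 in SHR and 7.05, 7.95 and 7.77 in WKY, and the groups overlapped. Over all arrays it lay between the 11.3th and the 48.5th percentile of signal. A pseudogene symbol on this array may share probes with its parent gene.

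Without SHR collateral 3 the control difference itself was the same, and the smaller spread put 9 members at unadjusted p under 0.05 in place of 3, against 5.21% of all tested probe sets, and 0 lower, against 4.18%. They were Rps27l, Rpl23, Rps15, Rpl36, Rpl27a, Rpl18, Rpl26, Rps24 and Rpl27. The adjusted count was 0, against 0.0314% of all, with a smallest adjusted p of 0.303.

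Other measures also varied over the same control arrays. Of those given here, only the endothelial markers separated the strains, and the ranges of the rest overlapped. The summed level of the endothelial markers, of which 2 of 6 measured were above the 40th percentile on every array, was 10.88 to 11.55 (log2) in SHR and 11.89 to 12.12 in WKY, without overlap. That of the macrophage markers, of which 3 of 6 were above, was 12.42 to 15.45 in SHR and 11.66 to 12.55 in WKY. The mast cell markers were at 12.08 to 12.77 in SHR and 11.47 to 12.10 in WKY, and those of nerve and glia at 10.89 to 12.08 and 10.38 to 11.05. The log2 ratio of 3′ to 5′ control probe sets, a sign of RNA length, was 1.71 to 2.31 in SHR and 2.07 to 2.38 in WKY. Their part in the ribosomal protein difference was not tested.

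**Figure D3:**
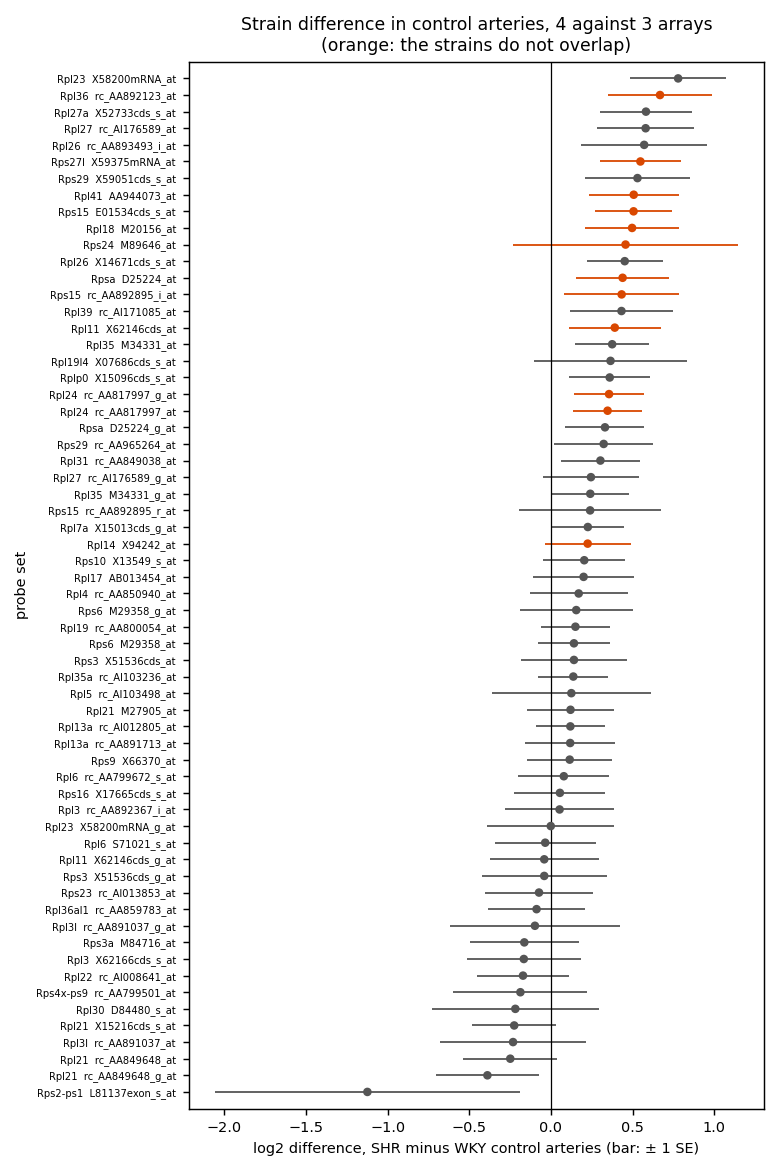
Log2 difference, SHR minus WKY control arteries (x axis), for each of 62 ribosomal protein probe sets (rows), with bars of ±1 SE from limma and the 12 without overlap between strains in orange. The points run from -1.12 to 0.78, with 45 to the right of 0.

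In collateral arteries the members lay on both sides of 0. The median member difference was 0.005 (log2, SHR minus WKY), with 32 of 62 above 0, where the median over all tested probe sets was 0.12 and 58.9% were above 0. Without SHR collateral 3 the member median was 0.088, with 40 of 62 above 0, beside 0.007 and 50.7% over all. The direction of the median depended on the array scaling, at 0.172 with quantile normalization and -0.235 with equal array medians, the latter with the median of all tested probe sets moved to -0.12. By limma 0 members passed the adjusted threshold (0% of all tested). At unadjusted p under 0.05, 3 were higher (against 4.01% of all) and 1 lower (against 3.61%). Leaving out SHR collateral 3 gave 3 higher (against 2.65%), namely Rpl11, Rpl18 and Rpl26, and 0 lower (against 2.62%).

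The largest of these was Rpl26 (rc_AA893493_i_at), a large-subunit protein that also binds p53 messenger RNA. It read 12.69, 13.79, 13.50 and 12.41 in SHR collateral arteries and 12.15, 11.15, 12.58 and 12.41 in WKY collateral arteries. The groups overlapped, and the difference was 1.03 ± 0.36 (limma adjusted p = 0.517), or 0.89 ± 0.37 without SHR collateral 3. The second Rpl26 probe set differed by 0.34 ± 0.22, or 0.31 ± 0.20 without it. Rpl23 (X58200mRNA_at) was at 0.61 ± 0.27, or 0.52 ± 0.27 without it. Rpl36 was at 0.63 ± 0.30, or 0.41 ± 0.27 without it. The lower member was Rpl21 (rc_AA849648_g_at), at -0.65 ± 0.29, or -0.45 ± 0.27 without SHR collateral 3.

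Only Rpl3 (rc_AA892367_i_at), among the 62, had groups without overlap, lower in SHR, against 1.55% of all tested probe sets lower and 2.07% higher. It read 16.31, 16.33, 14.88 and 16.20 in SHR and 16.34, 16.49, 16.47 and 16.69 in WKY. The difference was -0.57 ± 0.31, and -0.21 ± 0.20 without SHR collateral 3. Without that array, 4 members had no overlap with SHR higher (against 3.39% of all) and 1 with SHR lower (against 2.62%). The 4 were Rpl11 (X62146cds_at), Rpl18, Rpsa (D25224_g_at) and Rps27l. Of these, Rpl11 (X62146cds_at), which binds Mdm2 when ribosome assembly fails, read 12.59, 12.94 and 12.79 in the other SHR arrays. It read 12.55, 11.97, 11.92 and 12.42 in WKY, a difference of 0.56 ± 0.22 (limma adjusted p = 0.875), or 0.34 with all arrays. The other Rpl11 probe set (X62146cds_g_at) did not share this rise. Its difference was -0.37 with all arrays, and without SHR collateral 3 its means were 14.911 in SHR and 14.943 in WKY.

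Collateral against control arteries of SHR showed no member past any threshold. By limma 0 of 62 passed the adjusted threshold (0% of all tested), and at unadjusted p under 0.05 there were 0 higher (2.07% of all) and 0 lower (1.69%). No member separated the groups, against 0.906% of all tested probe sets higher and 0.814% lower. The median member difference was -0.125 (log2, collateral minus control), with 13 of 62 above 0, beside 0.062 and 54.8% over all tested probe sets. Its direction depended on the array scaling, since with quantile normalization it was 0.018 with 32 above 0, beside -0.027 over all. With equal array medians it was -0.306 with 5 above 0, beside -0.119. Without SHR collateral 3 it was -0.021, with 29 above 0, beside -0.003 and 49.7%. At unadjusted p under 0.05 there were then again 0 higher (1.51% of all) and 0 lower (2.1%). In 2 members, Rpl4 and Rpl13a (rc_AA891713_at), the remaining collateral values all lay above the control values (1.65% of all), and in 1, Rpl21 (rc_AA849648_at), below them (2.29%). The other Rpl13a probe set (rc_AI012805_at) was at -0.099 ± 0.164 without that array, with overlap, where rc_AA891713_at was at 0.216 ± 0.178. The small subunit went from -0.168 to 0.032 and the large subunit from -0.116 to -0.052 when that array was left out.

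The members with the smallest p showed how much 1 array weighed. Rpl30 (D84480_s_at), a large-subunit protein, read 9.47, 8.90, 9.41 and 7.73 in control and 9.86, 9.58, 10.23 and 9.28 in collateral arteries, with a low value in SHR control 4. The groups overlapped and the difference was 0.86 ± 0.47 (limma adjusted p = 0.949), or 0.70 ± 0.50 without SHR collateral 3. Rps24 read 11.61, 11.89, 7.61 and 11.84 in collateral arteries against the control values above, a difference of -0.96 ± 0.64 (adjusted p = 0.949). The low value was that of SHR collateral 3, and without it the difference was 0.09 ± 0.21. Rpl17 and Rpl7a, of the large subunit, were with Rps24 the lower members of smallest p. Rpl17 was at -0.44 ± 0.29, or -0.25 ± 0.26 without SHR collateral 3, and Rpl7a at -0.30 ± 0.21, or -0.27 ± 0.18.

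**Figure D4:**
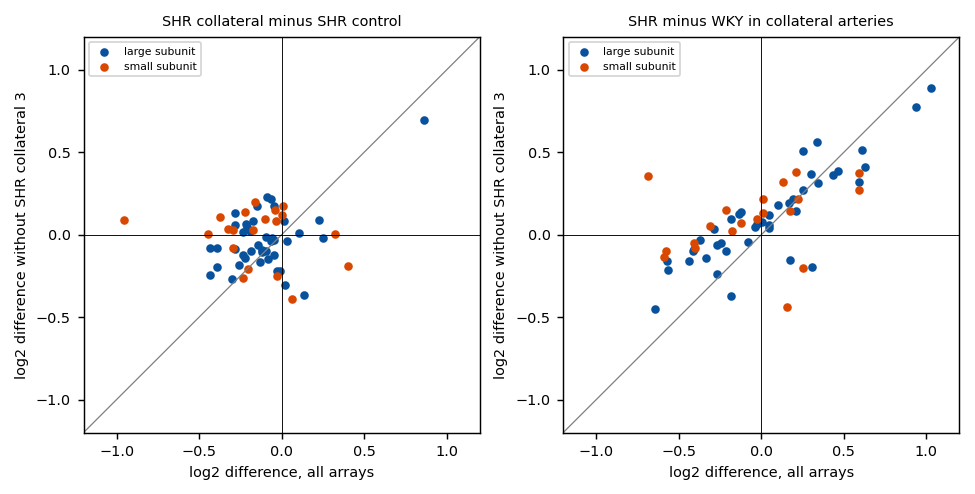
Log2 difference of each of 62 ribosomal protein probe sets with all arrays (x axis) and without SHR collateral 3 (y axis), for SHR collateral minus control (left) and SHR minus WKY collateral arteries (right), coloured by subunit. On the left the median moves from -0.125 to -0.021, and Rps24 moves from -0.96 to 0.09.

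In WKY the collateral arteries lay a little above the control arteries. The median member difference was 0.075, with 45 of 62 above 0 (72.6%), beside 0.003 and 50.3% over all tested probe sets. By limma 0 passed the adjusted threshold (0% of all tested), and at unadjusted p under 0.05 there were 0 higher (1.75% of all) and 0 lower (1.41%). In 3 of 62 probe sets the groups separated. These had collateral values all above control values, against 3.61% of all, and 0 had the reverse, against 3.09%. They were Rpl4, Rpl14 and Rps9. This comparison and that of the strains in control arteries share the WKY control arrays. Rpl4, a large-subunit protein, read 13.78, 13.99 and 13.48 in control and 14.02, 14.21, 13.99 and 14.23 in collateral arteries. Its control 2 and collateral 3 values were the same to 2 decimals, and the difference was 0.37 ± 0.30 (limma adjusted p = 1.00). Rps27l (0.32 ± 0.25) and Rpl39 (0.38 ± 0.32) were the other higher members with the smallest p, and among lower members these were Rpl21 (X15216cds_s_at), Rps2-ps1 and Rpl3l.

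The collateral change of SHR minus that of WKY had a median of -0.24 over the members, with 13 of 62 above 0, beside 0.035 and 52.5% over all tested probe sets. Without SHR collateral 3 it was -0.102, with 16 above 0, beside -0.006 and 49.4%. By limma 0 passed the adjusted threshold (0% of all tested), and at unadjusted p under 0.05 there were 0 higher (1.23%) and 0 lower (0.676%). The counts were 0 higher (0.581%) and 0 lower (1.13%) without that array as well. Rpl30 was at 1.16 ± 0.70, or 0.99 ± 0.70 without SHR collateral 3, and Rpl7a at -0.50 ± 0.30, or -0.47 ± 0.26. Rpl3 (rc_AA892367_i_at) was at -0.62 ± 0.45, or -0.27 ± 0.28 without that array. Averaged over both strains, the collateral change had a member median of -0.044 with 22 of 62 above 0, where 54.4% of all tested probe sets were. It was 0.031 without SHR collateral 3, with 36 above 0, where 50.5% of all were. The direction also depended on the scaling, at 0.042 with 41 above 0 under quantile normalization and -0.123 with 10 above 0 under equal array medians. Here too 0 passed the adjusted threshold (0% of all tested), and at unadjusted p under 0.05 there were 0 in each direction with all arrays, against 2.53% higher and 2.58% lower. Leaving out SHR collateral 3 put 1 higher, Rpl4 (0.30 ± 0.13), against 3.5%, and 0 lower, against 3.36%.

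**Figure D5:**
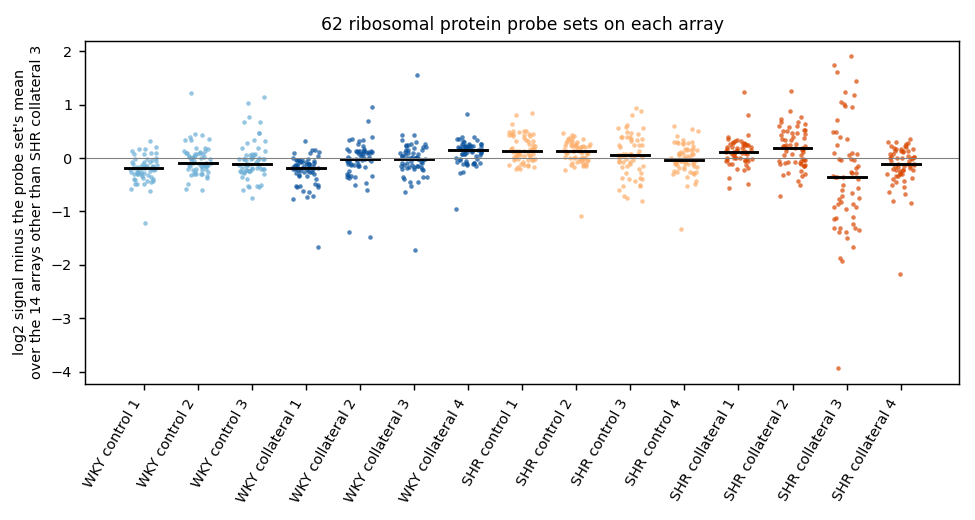
Log2 signal of 62 ribosomal protein probe sets on each of 15 arrays, as the difference from the probe set's mean over the 14 arrays other than SHR collateral 3, with 1 point for a probe set and a black bar at the array's median. The medians lie between -0.196 and 0.184 on 14 arrays and at -0.358 on SHR collateral 3.

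Over arrays, the member median deviated from the 14-array mean by 0.071 ± 0.077 in SHR control arteries (SD, n = 4) and by -0.131 ± 0.056 in those of WKY (SD, n = 3). In collateral arteries it was -0.041 ± 0.245 for SHR and -0.013 ± 0.130 for WKY (SD, n = 4 each). The SHR control arrays spanned -0.032 to 0.134 and the WKY control arrays -0.196 to -0.094, without overlap at the deposited scaling. The median over all tested probe sets also differed between these arrays. It was 0.111 on SHR control 4, where the member median was -0.032, and -0.081 on WKY control 1, where the member median was -0.196. Measured from each array's own median over all tested probe sets, the control groups would overlap. The WKY collateral arrays, from -0.176 to 0.141, overlapped both. The other 3 SHR collateral arrays averaged 0.064 ± 0.153 (SD, n = 3).

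Probe sets of the same gene did not always give the same value. In 16 genes 35 tested probe sets could be compared, making 23 pairs. The signs of the difference between strains in control arteries matched in 15 of 23 pairs, and those of the WKY collateral change in 22 of 23. The largest gap was in Rpl23, at 0.78 in control and 1.02 in collateral arteries, or 0.62 in the latter without SHR collateral 3. Many ribosomal protein genes have near-identical processed copies in the genome, so which copy a probe set measured is uncertain.

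Members with roles outside the ribosome are given with all their probe sets. Rplp0, the stalk protein at the base of the P1 and P2 dimers, differed by 0.36 ± 0.25 between strains in control and 0.10 ± 0.23 in collateral arteries, or 0.18 ± 0.20 in the latter without SHR collateral 3. Rpsa, which also acts as a laminin receptor, was at 0.44 ± 0.29 and 0.33 ± 0.24 in control, and at 0.01 ± 0.26 and 0.21 ± 0.22 in collateral arteries. Without SHR collateral 3 the collateral values were 0.22 ± 0.22 and 0.38 ± 0.18. Rps6, the protein phosphorylated by S6 kinase, was at 0.14 ± 0.22 and 0.16 ± 0.35 in control arteries. None of these passed the test.

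Rps3, which also takes part in DNA repair, was at 0.14 ± 0.33 and -0.04 ± 0.38 in control arteries, and its SHR collateral changes of -0.22 ± 0.30 and -0.45 ± 0.35 became 0.14 ± 0.21 and 0.01 ± 0.22 without SHR collateral 3. Rpl13a, released from the ribosome to silence inflammatory messages, was at 0.12 ± 0.27 and 0.12 ± 0.21. Rpl5 and Rpl11, which hold Mdm2 together with 5S RNA, were at 0.13 ± 0.49 for Rpl5 and 0.39 ± 0.28 and -0.04 ± 0.34 for Rpl11. No strain difference of these genes in control arteries passed the adjusted test.

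Other genes of translation were described from lists, and 0 of their probe sets passed the adjusted limma test in any comparison. In control arteries, where 3.72% of all tested probe sets were higher in SHR at unadjusted p under 0.05 and 2.75% lower, elongation factors (9 probe sets of 4 genes) had 0 higher and 2 lower. Initiation factors and regulators (32 of 21 genes) had 2 and 0, and ribosome biogenesis genes (19 of 12 genes) 0 and 0. The mTOR and S6 kinase genes (15 of 11 genes), the other TOP messages (16 of 7 genes) and the mitochondrial ribosomal proteins (17 of 14 genes) had 0 and 0. The 2 lower probe sets were those of Eef2k, the kinase that inactivates elongation factor 2. One of them (X96426_at) read 9.62, 11.42, 9.93 and 10.68 in SHR control arteries and 10.73, 11.42 and 12.63 in WKY control arteries. The groups overlapped, and the difference was -1.18 ± 0.50 (limma adjusted p = 0.689).

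Eef2k (X96426_at) read 10.04, 10.92, 10.72 and 10.09 in WKY collateral arteries, at a difference from control of -1.15 ± 0.50 (limma adjusted p = 1.00). Both comparisons share the WKY control arrays. Between SHR collateral and control arteries, 1 of 19 biogenesis probe sets was higher at unadjusted p under 0.05, against 2.07% of all tested, and it was that of Ubtf, the RNA polymerase I factor. It read 6.60, 6.99, 6.37 and 6.99 in control and 7.40, 8.92, 8.58 and 7.99 in collateral arteries. All collateral values lay above all control values, as in 0.906% of all tested probe sets. The probe set is dim, with every one of these values below 8.94, the median of mean log2 signal over all tested probe sets. In WKY it read 7.49, 8.36 and 6.72 in control and 7.88, 7.81, 8.04 and 8.03 in collateral arteries, with overlap. The SHR difference was 1.49 ± 0.49 (limma adjusted p = 0.949), or 1.37 ± 0.52 without SHR collateral 3.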

How the data were processed

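The deposited values are MAS5 signal, a never-negative array signal per probe set made by the authors with GCOS and MAS5, per the submitters' processing notes, with versions not given in the sources used here. Tested on the file, each array's trimmed mean (2% left out at each end) was 1001.1 to 1001.7, so arrays had been scaled to 1 target. Signals below 1 were set to 1 (12 values) and log2 was taken. Gene symbols came from the platform annotation (7006 probe sets with 1 symbol, 308 with several, 1426 with none), and 42 of 43 member symbols matched by gene ID in RefSeq, with 0 differing.

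Probe sets at or above their array's 40th percentile on at least 3 of 15 arrays (6512) were fitted with limma 3.58.1 in R 4.3.3 as 4 group means with a mean-variance trend (11 residual and 7.19 prior degrees of freedom), two-sided, with Benjamini-Hochberg adjustment over all of them at 0.05. The fit was tested on simulated independent normal values, with the spread of the arrays other than SHR collateral 3. The planted changes were larger than most member differences, so the simulation does not show what the fit could find among the members. The members, gene lists and markers were chosen with earlier results of these data known. Named probe sets are the 3 with the smallest p in each direction in each comparison, a set of members with known other roles, genes with several probe sets, and the extremes of signal and spread. Values of individual genes beyond these were chosen after they were seen. Alternatives were quantile normalization, equal array medians, an added constant, other filters, no trend, array weights, only the groups compared, a replicate block, each array left out, and other choices of probe set per gene. Array number limits the precision. No arrays were identical (highest Pearson correlation 0.927).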

Additional observations from a re-analysis of the deposited data

Results flagged for a closer look

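In groups of 4 arrays, 99 sets of values were examined for 1 value far from the other 3, covering 32 ribosomal protein probe sets and the member median in 3 groups, and 6 were found, of which 4 were SHR collateral 3. The measure is the gap to the nearest array divided by the group's range, set against Dixon's 95% critical value, and chance alone gives about 1 in 20 groups.

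In SHR collateral arteries, array 3 was low for Rps24 (M89646_at), at 7.61 against 11.61 to 11.89 (log2), a ratio of 0.935. For Rps27l (X59375mRNA_at) it was 12.24 against 12.98 to 13.04, a ratio of 0.925. For Rpl4 (rc_AA850940_at) it was 12.87 against 14.13 to 14.16, a ratio of 0.977. For Rpl3 (rc_AA892367_i_at) it was 14.88 against 16.20 to 16.33, a ratio of 0.91.

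In WKY collateral arteries, array 2 was high for Rpl3l (rc_AA891037_at), at 9.48 against 8.87 to 8.96, a ratio of 0.852. Array 1 was low for Rpl22 (rc_AI008641_at), at 15.31 against 15.63 to 15.66, a ratio of 0.914.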

How the results depend on the processing

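The median member difference (log2) moved by more than the 0.152 spread of the array medians under 2 scalings. With equal array medians it was -0.306 for the SHR collateral change, -0.443 for the SHR change minus the WKY change and -0.235 for the strain difference in collateral arteries. With quantile normalization it was -0.042 for the SHR change minus the WKY change and 0.172 for the strain difference in collateral arteries. Equal array medians moved the median of all tested probe sets to -0.119, -0.168 and -0.12 in these 3 comparisons. Leaving out each array in turn gave -0.206 to -0.021 for the SHR collateral change, 0.041 to 0.159 for WKY, -0.293 to -0.102 for the difference of changes, -0.082 to 0.031 for the mean change, 0.148 to 0.22 for the strain difference in control arteries and -0.089 to 0.088 in collateral arteries. No member passed the adjusted limma test under any of these settings.

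Of single members, the SHR collateral change of Rps15 (rc_AA892895_i_at) was 0.325 in the main fit, 0.005 without SHR collateral 3 and -0.025 with array weights. In the main fit the other Rps15 probe sets were at -0.205 (E01534cds_s_at) and 0.061 (rc_AA892895_r_at). The SHR collateral change of Rpl26 (rc_AA893493_i_at) was 0.224 in the main fit and -0.026 with array weights. It ranged from -0.008 (without SHR collateral 2) to 0.455 as each array was left out. That of Rps24 ranged from -1.342 to 0.087, the latter without SHR collateral 3. The cause was not tested. Replicate numbers were not shown to pair arrays, since same-number correlations were -0.07 to 0.08 in SHR and 0.016 to 0.306 in WKY, and 2 of 4 and 2 of 3 control arrays correlated best with their own number. With a block for replicate number, shared by both strains, the medians were -0.125, 0.075, -0.238, -0.034, 0.161 and 0.005 in the order above, and 0 members passed. That block does not pair control and collateral arrays within a strain.

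Leaving out paralog, like and pseudogene symbols, chosen after seeing the data, gave 0.204 for the control strain difference over 55 probe sets. Probe sequences were not used, so shared probes were not examined.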

Other observations

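A further 38 probe sets carry several gene symbols that are all of ribosomal protein genes, their copies or unnamed loci, and they were kept out of the members because no single gene can be named for them. Of the 37 tested, 34 had a higher mean in SHR than in WKY control arteries, as did 51.6% of all tested probe sets. Their median was 0.354 (log2), beside 0.02 over all tested probe sets. At unadjusted limma p under 0.05, 9 were higher and 0 lower, against 3.72% and 2.75% of all tested probe sets. The adjusted count was 0, against 0.0307% of all, with a smallest limma adjusted p of 0.448. In 9 the strains did not overlap, with SHR higher, against 4.85% of all. With equal array medians the median was 0.317, and in 4 the strains did not overlap with SHR higher, against 3.61% of all. With quantile normalization the median was 0.387, and there were 7 such probe sets, against 4.39% of all. In collateral arteries the median was 0.16 with 22 above 0, beside 0.12 and 58.9% over all tested probe sets. Without SHR collateral 3 it was 0.222 with 30 above 0, beside 0.007 and 50.7%. With equal array medians it was -0.08, where the median over all tested probe sets had moved to -0.12. The collateral change in WKY had a median of 0.104 with 33 of 37 above 0, beside 0.003 and 50.3% over all tested probe sets.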
